A study of Homo sapiens with 60 samples.

Results

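A pair of hot water extracts used in Korean herbal medicine was set against each other in HepG2 cells, a human line from a hepatocellular carcinoma that keeps many liver functions. Poria Cocos is the sclerotium of a wood-decay fungus, and Atractylodis Rhizoma is the rhizome of plants of the genus Atractylodes. The libraries described are those whose labels give Poria at 500 µg/mL or Atractylodes at 500 µg/mL, which carry the same first number in their column names. These are 6 of the 60 libraries, 3 for each extract. The same extracts at 20 and 100 µg/mL (3 libraries each) and the vehicle, which the labels give as 0.1% DMSO (3 libraries), were used beside them. The vehicle's column names begin with another label than those of both extracts. The DMSO content of the extract wells is not given in the labels, and the study's design text states another DMSO share for the vehicle than the sample labels do. Every group was this 1 cell line, exposed for 24 h before total RNA was taken. Nothing in the labels says that the replicates were separate cultures, so the p-values measure only the spread between these libraries.

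The genes described below belong to pathways that liver cells use to meet chemical and nutrient signals. NRF2 is a transcription factor that is released when electrophiles reach its sensor KEAP1 and switches on genes for glutathione supply and quinone reduction. Metallothioneins are small proteins that hold zinc and copper, and the zinc-sensing factor MTF1 drives their genes through metal response elements. Hepcidin, the product of HAMP, is the liver hormone that limits iron export, and BMP signalling through SMAD proteins switches on its gene. Immediate early genes are transcription factors and regulators that growth factor and stress signals induce within minutes, largely through the ERK cascade.

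Levels are given as CPM, the counts of a gene per 1 M counts of the TMM-scaled library, 1 value per library, and differences as log2 of Poria over Atractylodes with the standard error of the fit across all 60 libraries. A gene was called when edgeR's quasi-likelihood test gave a Benjamini-Hochberg adjusted p below 0.05 over the 16093 genes tested. Library totals were 27.7, 25 and 22.9 M counts for Poria at 500 µg/mL and 28.9, 24.7 and 24.9 M for Atractylodes at 500 µg/mL, where 3 counts stand for 0.104 to 0.131 CPM. Hepatocyte marker genes summed to 67700 to 69230 CPM in the Poria libraries and 63430 to 65500 CPM in the Atractylodes libraries, with none of 10 at 0. At 500 µg/mL 4 of these 10 were called higher and 3 lower with Poria, with a median difference of −0.02. With library totals in place of TMM factors 2 were called higher and 5 lower. Mitochondrially encoded genes held 13.1, 11.6 and 13.1% of the counts in the Poria libraries and 10.6, 9.7 and 9.89% in the Atractylodes libraries, which did not overlap. TMM factors were 0.936, 0.946 and 0.926 for Poria and 1.01, 1.02 and 1.02 for Atractylodes, so the scaling bears on the balance of small differences. The first Poria library at 100 µg/mL stood apart from its replicates, with a chi-square per degree of freedom over genes of 30.1 and 29.4 against 3.45 between the other two, and mitochondrially encoded genes held 15.2% of its counts against 11.2 and 11.9%.

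At 500 µg/mL the extracts differed in 6907 genes (42.9% of those tested), of which 3504 were higher and 3403 lower with Poria. Most differences were small, since the median called difference was 0.33 for higher and −0.36 for lower genes, and 702 genes differed at least 2-fold (394 higher, 308 lower). With library totals in place of TMM factors the split became 2073 higher and 5523 lower, and the median of all genes was −0.13 in place of −0.01. Counts of list members at 500 µg/mL are therefore given with both scalings. Each is to be read against the share of all genes. That share was 21.8% higher and 21.1% lower with TMM factors, and 2073 and 5523 of the 16093 genes with library totals.

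Among called genes that averaged at least 5 CPM with 1 of the extracts and whose libraries did not overlap, the largest difference upward was in IGFBP3, a secreted protein that binds insulin-like growth factors, with 7.71, 11.3 and 10.6 CPM in Poria libraries against 0.752, 1.19 and 0.552 CPM in Atractylodes libraries. The log2 difference was 3.56 ± 0.181 (SE, edgeR adjusted p = 2.44e-22). Non-overlap was a condition of the rule and is no separate result, and IGFBP3 passed the 5 CPM limit through its Poria libraries alone. EGR1, an immediate early transcription factor, had 129, 120 and 128 CPM with Poria against 17.9, 15.5 and 16.5 CPM with Atractylodes, a 7.54-fold difference (log2 2.92 ± 0.0778, edgeR adjusted p = 1.44e-33). AKR1B10, an aldo-keto reductase that clears reactive carbonyls and reduces retinal, had 361, 377 and 356 CPM with Poria against 56.6, 55 and 50.6 CPM with Atractylodes. The difference was 6.74-fold (log2 2.75 ± 0.058, edgeR adjusted p = 3.35e-38). The other 8 genes named for their upward difference ran from log2 2.27 to 2.74. They were PLCH2, a phospholipase C, DUSP13, a phosphatase of the dual-specificity family, IGFBP1, PHLDA2, an imprinted growth regulator of placenta, FOS, LINC03033, a long non-coding RNA, RASD1, a small GTPase, and AKAP12, a scaffold that anchors protein kinase A.

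By the same rule the largest difference downward was in HAMP, with 0.733, 0.634 and 0.284 CPM in Poria libraries against 5.95, 4.56 and 4.61 CPM in Atractylodes libraries. The level with Atractylodes was 8.9-fold that with Poria (log2 −3.15 ± 0.242, edgeR adjusted p = 1.12e-15). HAMP passed the 5 CPM limit through its Atractylodes libraries alone. The metallothioneins MT1F and MT1G followed, at log2 −2.96 ± 0.138 and −2.50 ± 0.151. The remaining 9 ran from −1.98 to −1.51 and included DTX4, a ubiquitin ligase of the Deltex family that acts on Notch, GNMT, which consumes S-adenosylmethionine in liver, KNG1, the kininogen that releases bradykinin, SLC23A1, a vitamin C transporter, ALDH3B1, an aldehyde dehydrogenase, the tight junction protein gene CLDN19 and the uroplakin gene UPK3A, with MAB21L4 and EXOC3L4. Among these 9, DTX4 had 4.71, 3.8 and 3.74 CPM with Poria against 18, 15.8 and 14.8 CPM with Atractylodes (log2 −1.98 ± 0.0929, edgeR adjusted p = 9.86e-24).

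**Figure D1:**
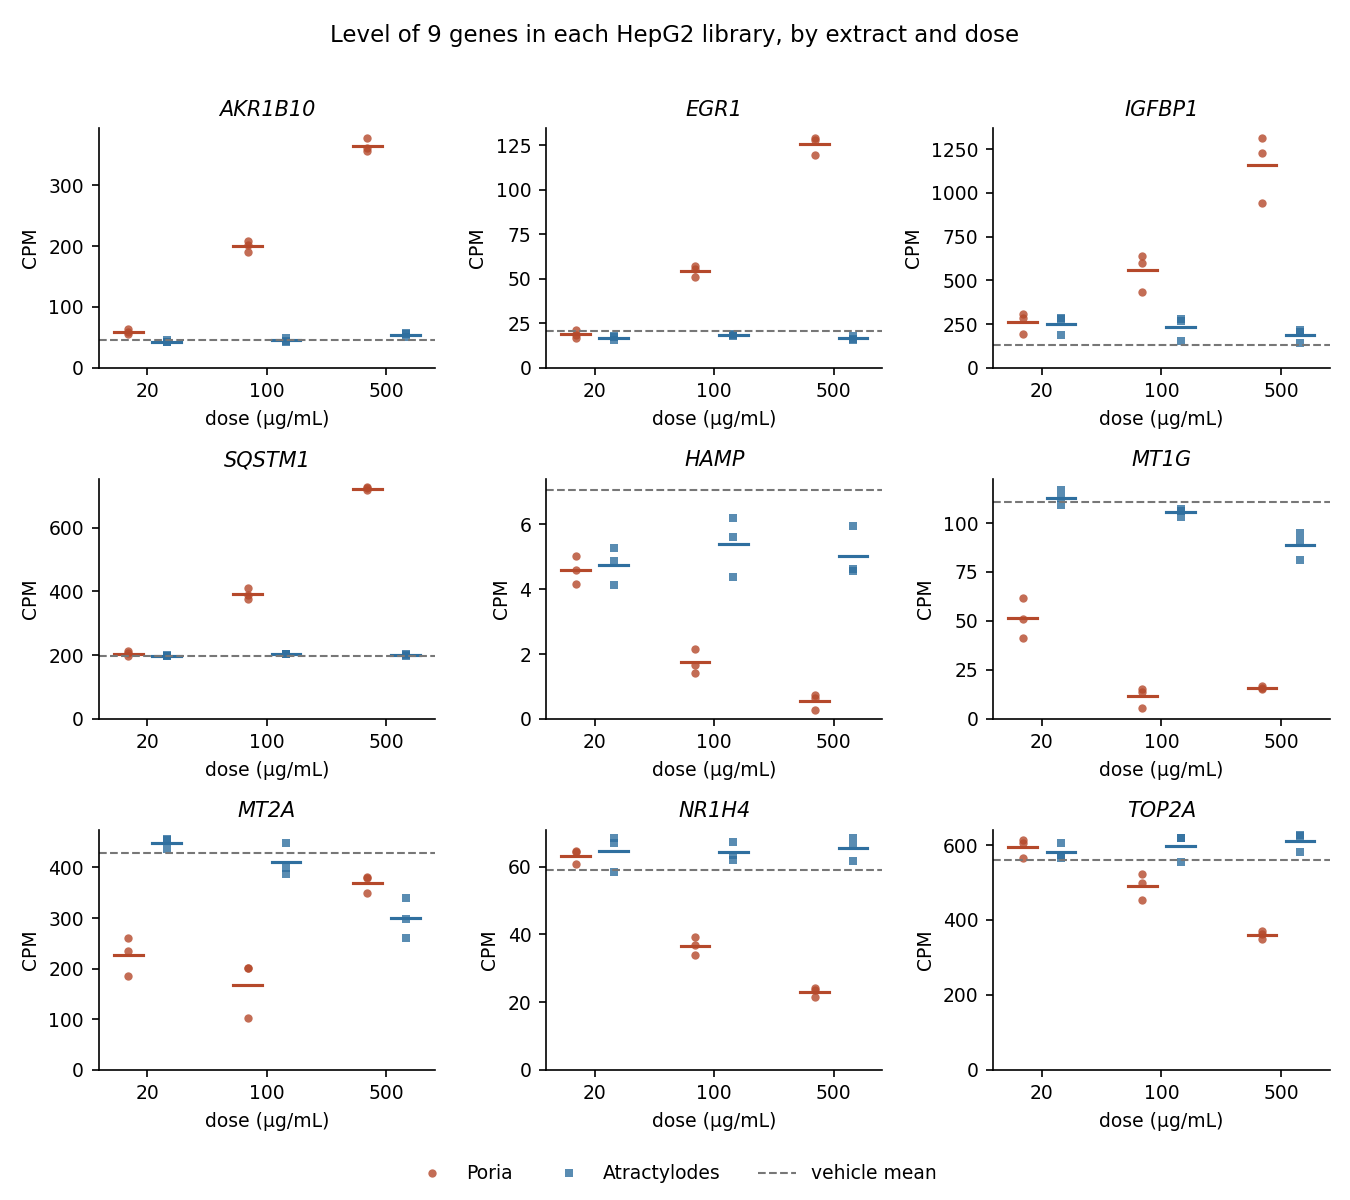
Level in CPM (y axis of each panel) of 9 genes in libraries of Poria and of Atractylodes at 20, 100 and 500 µg/mL (x axis); points are libraries, bars are group means and the dashed line is the vehicle mean. The means of AKR1B10, EGR1 and SQSTM1 are higher at each successive Poria dose, those of HAMP and NR1H4 are lower, and MT2A is lowest at 100 µg/mL of Poria.

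Genes of the NRF2 response were higher with Poria. Of 25 NRF2 targets tested, 20 were higher and 1 was lower at 500 µg/mL (18 and 2 with library totals), where 21.8% of all genes were higher and 21.1% lower, and the list's median difference was 0.57 against −0.01 for all genes. GCLM, the modifier subunit of the enzyme that limits glutathione synthesis, had 87.7, 94 and 89.8 CPM with Poria against 34.1, 33.1 and 33.1 CPM with Atractylodes. The groups were well apart, at log2 1.44 ± 0.0513 (edgeR adjusted p = 2.27e-28). Its catalytic partner GCLC had 203, 193 and 199 CPM against 82.6, 84.5 and 81.9 CPM (log2 1.26 ± 0.0347), so both subunits differed. The cystine importer SLC7A11 differed by 1.40 and SRXN1, which repairs oxidised peroxiredoxins, by 1.28. NQO1, the quinone reductase that serves as a standard NRF2 readout, had 888, 917 and 922 CPM with Poria against 404, 430 and 448 CPM with Atractylodes. Its libraries did not overlap, at log2 1.09 ± 0.0445 (edgeR adjusted p = 4.57e-26). Thioredoxin reductase TXNRD1 (1.06), the conjugate exporter ABCC2 (1.11) and the ferritin chains FTL (0.85) and FTH1 (0.57) were also called higher. NFE2L2, which encodes NRF2 itself, differed by 0.15 ± 0.0377 (edgeR adjusted p = 0.000688), a call lost with library totals.

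Not every target was called. HMOX1, which opens the haem ring, had 82.9, 81.2 and 83.6 CPM with Poria against 78.9, 74.7 and 74.1 CPM with Atractylodes. These sets did not overlap, but the difference of 0.12 ± 0.0528 missed the threshold (edgeR adjusted p = 0.0601). BLVRB, TRIM16L and EPHX1 were also not called.

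The promoter of GCLM is shown because it holds the core of the antioxidant response element that NRF2 binds, TGACNNNGC, in capitals. The sequence is RefSeq's, GRCh38.p14, chr1:93909381-93909680, minus strand, 250 bases before to 50 after the gene's start.
GCLM: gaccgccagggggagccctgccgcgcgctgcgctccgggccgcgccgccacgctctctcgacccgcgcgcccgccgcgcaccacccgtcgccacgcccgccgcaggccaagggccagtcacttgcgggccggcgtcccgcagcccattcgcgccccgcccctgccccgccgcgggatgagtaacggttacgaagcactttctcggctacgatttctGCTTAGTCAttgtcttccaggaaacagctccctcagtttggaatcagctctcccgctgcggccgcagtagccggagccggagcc
Searched on both strands, the core was in 6 of the 17 NRF2 targets with a promoter sequence (CBR1, EPHX1, GCLM, PGD, PIR and TXNRD1) and in 13.3% of all 35116 promoters of that length. Distal elements lie outside this window.

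Aldo-keto reductases split. Of 9 tested, 4 were higher and 3 lower with either scaling, with a median of 0.08 (−0.04 with library totals). AKR1C1, a ketosteroid reductase, had 1041, 1071 and 1097 CPM with Poria against 342, 360 and 377 CPM with Atractylodes (log2 1.57 ± 0.0718). AKR1D1, a steroid reductase of bile acid synthesis, had 10.1, 12.1 and 11 CPM with Poria against 24.8, 28.6 and 25.2 CPM with Atractylodes (log2 −1.25 ± 0.0654). Some AKR1B and AKR1C genes have close copies within their own subfamily. The authors' counting could split reads among such copies, so the values of single genes are uncertain. Of 19 glutathione transferases and peroxidases 4 were higher and 7 lower (4 and 11 with library totals), against 21.8% and 21.1% of all genes. GSTA1 (−0.85) and GSTA2 (−1.14), another pair of near-identical genes, were lower, while MGST1 (0.56) and GPX2 (0.40) were higher. CYP1A1, the classic target of the aryl hydrocarbon receptor, had 30.7, 23.4 and 24.7 CPM with Poria against 16.1, 16.4 and 15.3 CPM with Atractylodes (log2 0.73 ± 0.0816). UGT1A1, which conjugates bilirubin, differed by 0.96. CYP3A4, the main drug-metabolising cytochrome of liver, was low in these cells, at 0.309, 0.254 and 0.284 CPM with Poria against 0.512, 0.119 and 0.473 CPM with Atractylodes, and was not called (edgeR adjusted p = 0.516).

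Immediate early genes were higher with Poria after 24 h of exposure. Of 20 tested, 18 were higher and 1 lower with either scaling, with a median of 1.27. FOS had 6.48, 7.31 and 8.18 CPM with Poria against 1.02, 1.55 and 1.46 CPM with Atractylodes (log2 2.45 ± 0.186, edgeR adjusted p = 7.61e-16). IER3, a regulator of cell survival, had 256, 219 and 231 CPM against 57.6, 54.4 and 62.9 CPM (log2 2.02 ± 0.0607). No library of either set came near the other group's range. ZFP36, which targets AU-rich messages for decay, differed by 1.92, the AP-1 subunits JUNB and JUN by 1.28 and 1.25, and MYC by 0.48. The growth inhibitor BTG2 was lower (−0.49 ± 0.0705), and CCN2, a matricellular protein, was not called (0.02, edgeR adjusted p = 0.854).

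The promoter of EGR1 (RefSeq, GRCh38.p14, chr5:138465229-138465528, plus strand) is shown with its CArG boxes, the sites that serum response factor binds, in capitals.
EGR1: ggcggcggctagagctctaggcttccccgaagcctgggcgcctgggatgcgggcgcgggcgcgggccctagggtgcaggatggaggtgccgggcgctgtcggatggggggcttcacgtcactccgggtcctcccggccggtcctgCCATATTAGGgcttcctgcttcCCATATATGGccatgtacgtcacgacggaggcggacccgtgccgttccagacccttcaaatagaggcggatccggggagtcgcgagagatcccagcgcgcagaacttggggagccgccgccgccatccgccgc
There were 2 matches, whose first bases lie at −105 and −83 from the start. EGR1 was the 1 gene of 14 immediate early genes with a promoter sequence that held a CArG box, against 1.29% of all 35116 promoters.

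Genes that the ERK cascade induces as its own brakes were among those higher. Of 16 in that list, 10 were higher and none lower (9 and 2 with library totals), with a median of 0.56. DUSP5, a nuclear phosphatase of ERK, had 10.3, 8.96 and 9.93 CPM with Poria against 2.39, 2.38 and 2.09 CPM with Atractylodes (log2 2.08 ± 0.14). SPRY4, a Sprouty inhibitor of receptor signalling, had 142, 120 and 123 CPM against 42.4, 39.5 and 40.9 CPM (log2 1.65 ± 0.063). DUSP6, the cytoplasmic ERK phosphatase, differed by 1.11 ± 0.0454, and its groups did not overlap either. The ETS factors ETV4 (−0.05) and ETV5 (0.01), often induced by ERK in other cells, were not called.

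Of 13 genes of the insulin-like growth factor axis, 6 were higher and 2 lower (5 and 4 with library totals), with a median of 0.10. Of all genes 21.8% were higher and 21.1% lower. IGFBP1, a FOXO target that insulin represses in liver, had 944, 1313 and 1226 CPM with Poria against 140, 206 and 217 CPM with Atractylodes. The groups were far apart, and the first library of each extract was its lowest (log2 2.63 ± 0.174, edgeR adjusted p = 5.56e-18). IGFBP2 had 18.4, 19.2 and 19.1 CPM against 9.29, 9.04 and 8.75 CPM (log2 1.06 ± 0.0939). IGFBP4 was not called (0.09, edgeR adjusted p = 0.321). IGFALS, which carries IGF complexes in plasma, was lower (−1.05 ± 0.294), and the growth factor IGF2 (−0.08) and the receptor IGF1R (−0.04) were not called. Of 21 FOXO and gluconeogenesis genes, 11 were higher and 4 lower (8 and 5 with library totals), with a median of 0.22. DEPP1, a FOXO target induced on fasting, had 38.6, 34.8 and 33.2 CPM with Poria against 13.3, 12.7 and 13.2 CPM with Atractylodes (log2 1.45 ± 0.101). The gluconeogenic genes diverged, as PCK1, which makes phosphoenolpyruvate, differed by 0.58 ± 0.1 and G6PC1, which releases glucose from its phosphate, was not called (12.8, 11.3 and 11.1 CPM with Poria against 14.9, 11.4 and 13.1 CPM with Atractylodes, edgeR adjusted p = 0.228; with library totals it was called lower, at −0.28).

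Hypoxia and glycolysis genes were mostly higher with Poria, 28 of 33 against 1 lower (25 and 2 with library totals), with a median of 0.45. ADM, the vasodilator adrenomedullin, had 16.8, 27.6 and 25.8 CPM with Poria against 8.3, 8.92 and 8.32 CPM with Atractylodes (log2 1.45 ± 0.127). CA9, a carbonic anhydrase of hypoxic cells, had 6.75, 9 and 8.18 CPM against 2.56, 2.77 and 3.59 CPM (log2 1.42 ± 0.202). SLC2A1, the glucose transporter GLUT1, had 447, 500 and 483 CPM against 234, 266 and 266 CPM (log2 0.90 ± 0.0608). In each of these genes the lowest Poria library exceeded the highest Atractylodes library. PFKFB3, an activator of glycolytic flux, was 2.47-fold higher (edgeR adjusted p = 0.00012) and NDRG1, a stress-induced hypoxia target, differed by log2 1.18 (edgeR adjusted p = 3.1e-11), and for both the first library of each extract was the lowest. LDHA (0.45) and VEGFA (0.35) differed less. EPO, the erythropoietin gene that hypoxia induces in HepG2 cells, had 7.68, 10.3 and 10.2 CPM with Poria against 9.6, 10.8 and 12.1 CPM with Atractylodes, which overlapped, and was not called (edgeR adjusted p = 0.215). PFKL, the liver phosphofructokinase, was the 1 member lower (−0.21).

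Protein turnover genes were also higher, most by small amounts. SQSTM1, the autophagy receptor p62, had 726, 718 and 723 CPM with Poria against 200, 202 and 197 CPM with Atractylodes. The libraries of each extract lay within a few CPM of one another, and the difference was 3.62-fold (log2 1.85 ± 0.0386, edgeR adjusted p = 3.35e-38). Of 22 autophagy genes 13 were higher and 2 lower, a balance that became 9 and 6 with library totals. Among 32 proteasome subunits 26 were higher and none lower (17 and none with library totals), and none differed by more than 0.39, the value of the base subunit PSMC4. Of 22 lysosomal genes 15 were higher and none lower (6 and 1), led by the protease CTSB (0.81 ± 0.0398). Of 23 ER chaperone and unfolded protein response genes 16 were higher and 1 lower (11 and 4), with the sensor kinase ERN1 at 0.86 and the chaperone HSPA5 at 0.38.

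Adhesion and matrix genes and NF-kB targets belong beside these. Of 17 adhesion and matrix genes, 11 were higher and 5 lower (9 and 5 with library totals). ITGA2, the collagen-binding integrin subunit, had 226, 246 and 257 CPM with Poria against 63.5, 73 and 72.4 CPM with Atractylodes (log2 1.80 ± 0.0815). Fibronectin, FN1, differed by 0.68 ± 0.0581 and the metalloproteinase inhibitor TIMP1 by 1.46 ± 0.0633, while the basement membrane genes LAMA5 (−0.37) and COL18A1 (−0.41) were lower. Of 13 NF-kB targets 8 were higher and 2 lower (6 and 2), among them the chemokine CCL20 (1.22 ± 0.0987) and the adhesion molecule ICAM1 (0.89 ± 0.037). NFKBIA, the inhibitor that NF-kB itself induces, was lower (−0.29 ± 0.0435).

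**Figure D2:**
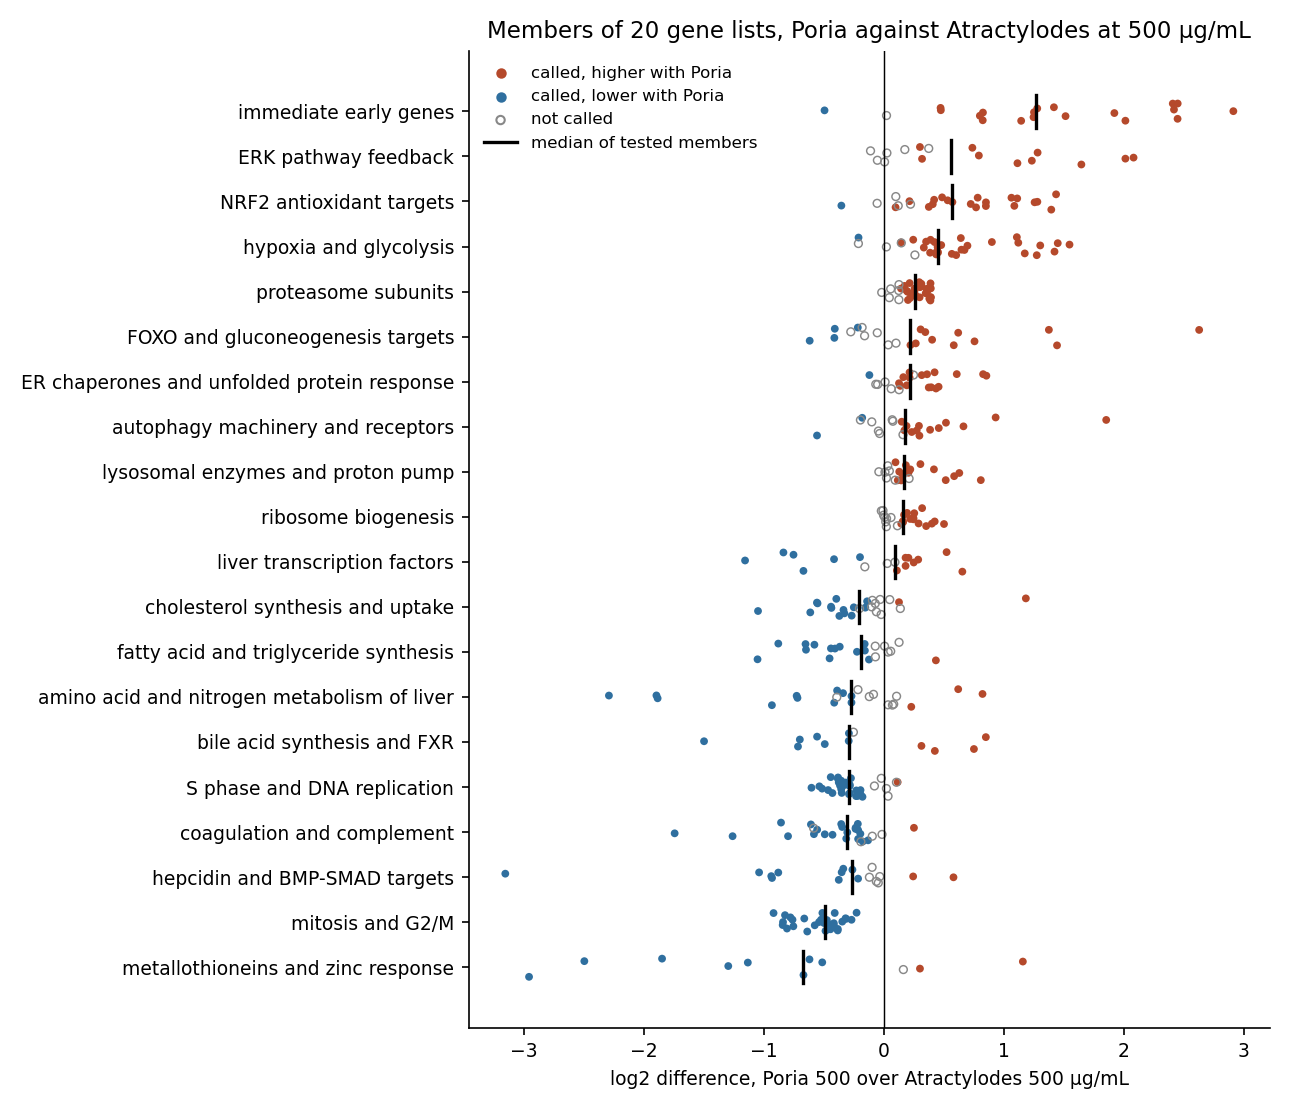
Log2 difference of Poria over Atractylodes at 500 µg/mL (x axis) for the members of 20 gene lists (rows); red points were called higher, blue points called lower, open points were not called, and the bar is the list's median. Immediate early genes have a median of 1.27, and all 32 members of the mitosis list lie left of 0. The 20 lists were picked by hand from 49. Those left out include mixed or mostly uncalled ones, such as heat shock genes (7 of 18 higher, 4 lower) and ribosomal proteins (28 of 34 not called).

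Metallothioneins gave a large difference that was present at the lowest dose and was not widest at the highest. At 20 µg/mL only 11 genes were called, 2 higher and 9 lower (0.0124% and 0.0559% of all genes), with 1402 genes at an unadjusted p below 0.05. The count of 11 was 59 without the second Poria library at 20 µg/mL, and 7 without the third Poria library or the second Atractylodes library at that dose. Of these 9, 5 were metallothioneins, namely MT1E, MT1F, MT1G, MT1X and MT2A, and a further gene was SLC30A1, the zinc exporter of the plasma membrane, which MTF1 also drives. The other 3 lower genes were ERG28 (−0.25) and ACSS2 (−0.21) of lipid synthesis and ENSG00000167046 (−1.23), which GENCODE annotates as antisense and for which the tables used here give no symbol. The 2 higher genes were AKR1B10 (0.47) and FAM177A1 (0.23).

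MT1G had 41.3, 61.9 and 51 CPM with Poria at 20 µg/mL against 117, 113 and 109 CPM with Atractylodes at 20 µg/mL (log2 −1.13, edgeR adjusted p = 9.38e-08). At 100 µg/mL it had 5.41, 13.5 and 15.4 CPM with Poria against 103, 107 and 106 CPM with Atractylodes (log2 −3.18, edgeR adjusted p = 1.68e-21). At 500 µg/mL it had 15.2, 15.6 and 16.6 CPM with Poria against 94.7, 81 and 90.8 CPM with Atractylodes (log2 −2.50, edgeR adjusted p = 1.89e-19). Poria libraries were below Atractylodes libraries at each dose, and the gap was widest at 100 µg/mL. The difference at 500 minus that at 100 µg/mL was 0.69 on the log2 scale (edgeR adjusted p = 0.042), a call lost without the first Poria library at 100 µg/mL (0.38, edgeR adjusted p = 0.28).

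MT1F had its widest gap at 100 µg/mL too, and kept most of it at 500 µg/mL. It had 18.7, 22.8 and 22.4 CPM with Poria against 41.7, 42.2 and 41.9 CPM with Atractylodes at 20 µg/mL. The Poria levels were 3.37, 4.54 and 5.44 CPM against 38.4, 42 and 41.5 CPM with Atractylodes at 100 µg/mL, and 4.74, 4.14 and 3.78 CPM against 34.1, 29.6 and 35.4 CPM at 500 µg/mL. The differences at 100 and 500 µg/mL (log2 −3.18 and −2.96) were not called apart (0.22).

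MT2A, the most general metallothionein, ran the other way at the top dose. It had 186, 261 and 235 CPM with Poria against 436, 455 and 456 CPM with Atractylodes at 20 µg/mL (log2 −0.98), and 102, 202 and 200 CPM against 386, 448 and 400 CPM at 100 µg/mL (log2 −1.29 ± 0.128). At 500 µg/mL it had 349, 381 and 378 CPM with Poria against 339, 299 and 261 CPM with Atractylodes, and was called higher (log2 0.30, edgeR adjusted p = 0.046). All 3 Poria libraries at 500 µg/mL were above all Atractylodes libraries, whereas at both lower doses all were below. The call at 500 µg/mL was lost with library totals (0.18, edgeR adjusted p = 0.248), in a fit of the 18 libraries of these extracts alone (edgeR adjusted p = 0.155) and without either the second or the third library of either extract (edgeR adjusted p from 0.0911 to 0.233). The change of the difference between 100 and 500 µg/mL was 1.59 (edgeR adjusted p = 5.94e-09). Without the first Poria library at 100 µg/mL the difference at that dose was −1.03 and its change 1.34, both still called. MT1E and MT1X had intermediate courses, with differences at 20, 100 and 500 µg/mL of −0.91, −2.28 and −1.30 for MT1E and −0.87, −1.91 and −1.13 for MT1X. The first library of Poria at 100 µg/mL was the lowest of its group for MT1E, MT1F, MT1G, MT1X and MT2A. These genes are near-identical copies in 1 cluster on chromosome 16, so reads could have been split among them by the authors' counting.

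The zinc transporters moved in opposite directions. SLC30A1 had 62, 68.6 and 67.1 CPM with Poria against 92.3, 94.2 and 95.3 CPM with Atractylodes at 500 µg/mL, and its difference at 20, 100 and 500 µg/mL was −0.19, −0.66 and −0.51. SLC39A10, a zinc importer, had 29.9, 30.2 and 33.7 CPM with Poria against 13.3, 14.4 and 14.3 CPM with Atractylodes at 500 µg/mL (log2 1.16 ± 0.0832), with 0.99 at 100 µg/mL and 0.35 at 20 µg/mL, where it was not called. MTF1 itself was not called (0.16, edgeR adjusted p = 0.066). Over the 11 metallothionein and zinc genes tested, 2 were higher and 8 lower at 500 µg/mL (1 and 8 with library totals), and 1 was higher and 9 lower at 100 µg/mL, where 10.9% of all genes were higher and 10.6% lower.

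Promoters of MT2A (RefSeq, GRCh38.p14, chr16:56608334-56608633, plus strand) and MT1X (chr16:56682220-56682519, plus strand) are shown because these genes parted at the top dose. Capitals mark the metal response element core, TGCACNC or TGCGCNC, on either strand.
MT2A: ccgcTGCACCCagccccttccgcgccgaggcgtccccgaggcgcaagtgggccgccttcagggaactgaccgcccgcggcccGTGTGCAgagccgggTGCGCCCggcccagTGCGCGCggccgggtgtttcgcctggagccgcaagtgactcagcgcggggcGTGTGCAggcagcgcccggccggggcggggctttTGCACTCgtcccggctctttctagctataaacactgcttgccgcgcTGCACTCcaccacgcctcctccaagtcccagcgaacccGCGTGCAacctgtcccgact
MT1X: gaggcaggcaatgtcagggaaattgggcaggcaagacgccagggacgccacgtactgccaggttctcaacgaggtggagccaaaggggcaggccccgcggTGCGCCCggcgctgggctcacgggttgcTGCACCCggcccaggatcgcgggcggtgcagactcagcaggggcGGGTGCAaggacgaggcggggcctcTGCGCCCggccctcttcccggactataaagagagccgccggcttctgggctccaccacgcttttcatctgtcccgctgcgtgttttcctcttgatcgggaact
MT2A held 8 matches and MT1X 4. The core was in 4 of the 6 listed genes with a promoter sequence (MT1X, MT2A, SLC30A1 and SLC39A10) and in 29.6% of all 35116 promoters.

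**Figure D3:**
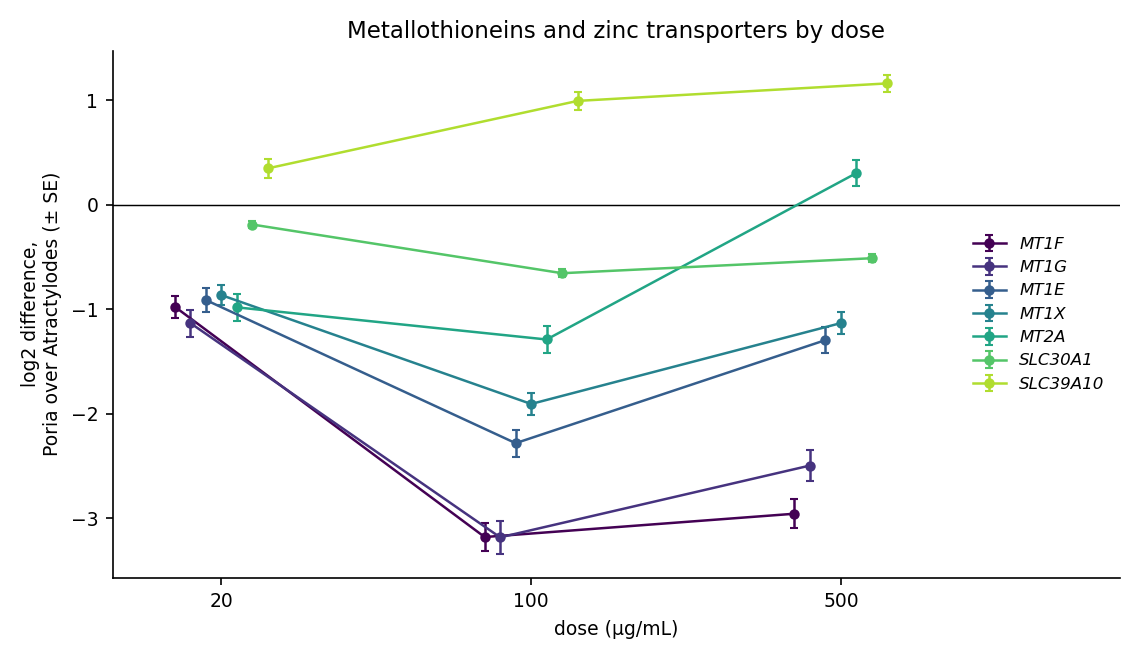
Log2 difference of Poria over Atractylodes (y axis, ± SE) at 20, 100 and 500 µg/mL (x axis) for 5 metallothioneins and 2 zinc transporters. MT1F is at −3.18 at 100 and −2.96 at 500 µg/mL, MT1G, MT1E and MT1X lie nearer to 0 at 500 than at 100 µg/mL, and MT2A is at −1.29 at 100 and at 0.30 at 500 µg/mL.

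Hepcidin and its BMP pathway were mostly lower with Poria. Of 17 genes, 10 were lower and 2 higher at 500 µg/mL (14 and 1 with library totals), with a median of −0.26. HAMP had 4.59, 4.15 and 5.03 CPM with Poria against 5.27, 4.12 and 4.87 CPM with Atractylodes at 20 µg/mL, which overlapped. It had 2.14, 1.42 and 1.66 CPM with Poria against 5.61, 4.37 and 6.2 CPM with Atractylodes at 100 µg/mL (log2 −1.65, edgeR adjusted p = 3.55e-09). The difference at 500 minus that at 100 µg/mL was −1.50 (edgeR adjusted p = 0.00205). ID1, a helix-loop-helix inhibitor that SMAD proteins induce, had 58.4, 77.6 and 73.9 CPM with Poria against 116, 132 and 137 CPM with Atractylodes at 500 µg/mL (log2 −0.88 ± 0.123). ID3 (−0.93), the inhibitory SMAD7 (−1.04) and TMPRSS6 (−0.94), the protease that restrains hepcidin, were lower as well. Unlike HAMP, none of ID1, ID3, SMAD7 and TMPRSS6 was called at 100 µg/mL, where their differences ran from −0.19 to 0.07. The receptor ACVR1 was higher (0.58), and the ligand BMP4 was not called (−0.05). In the iron list the transferrin receptor TFRC was lower (−0.25 ± 0.0497), against higher FTL and FTH1, and the exporter SLC40A1 (−0.09) and transferrin TF (−0.06) were not called.

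The HAMP promoter (RefSeq, GRCh38.p14, chr19:35282278-35282577, plus strand) is shown because it holds a BMP element, GGCGCC, in capitals.
HAMP: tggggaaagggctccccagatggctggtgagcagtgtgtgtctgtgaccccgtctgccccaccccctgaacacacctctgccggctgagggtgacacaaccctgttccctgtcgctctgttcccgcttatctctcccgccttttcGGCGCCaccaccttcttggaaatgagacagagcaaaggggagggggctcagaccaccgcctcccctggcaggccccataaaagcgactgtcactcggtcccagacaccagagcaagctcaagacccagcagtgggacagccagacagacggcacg
The 1 match spans −105 to −100 from the start. The element was in 5 of 15 listed genes with a promoter sequence (ACVR1, BAMBI, BMP4, BMPR2 and HAMP) and in 19.2% of all 35116 promoters.

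Cell division genes were lower with Poria. In these bulk libraries, fewer dividing cells and less of their RNA per cell cannot be told apart. All 32 mitosis genes were lower with either scaling, with a median of −0.49 and a range of −0.92 to −0.23. TOP2A, the topoisomerase that untangles sister chromosomes, had 349, 362 and 370 CPM with Poria against 582, 626 and 624 CPM with Atractylodes. The groups did not overlap (log2 −0.76 ± 0.0481, edgeR adjusted p = 1.13e-18). CCNB1, the cyclin of mitotic entry, had 102, 106 and 110 CPM against 131, 134 and 149 CPM (log2 −0.38 ± 0.0545), and CDC25C, the phosphatase that activates its kinase, differed by −0.92. Of 34 S phase genes, 28 were lower and 1 higher (31 and none with library totals), with a median of −0.29. The replicative helicase subunit MCM2 had 110, 108 and 106 CPM with Poria against 158, 157 and 147 CPM with Atractylodes (log2 −0.51 ± 0.037). The licensing factor CDC6 was the 1 member higher (0.12 ± 0.0346), and lay at −0.00372 with library totals.

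Of 26 p53 targets 15 were lower and 6 higher (16 and 4 with library totals), with a median of −0.18. GDF15, a secreted stress cytokine that other pathways also induce, had 597, 562 and 542 CPM with Poria against 193, 182 and 180 CPM with Atractylodes (log2 1.62 ± 0.0616). CDKN1A, the cell cycle inhibitor p21, had 177, 154 and 158 CPM against 125, 109 and 117 CPM (log2 0.48 ± 0.0494). MDM2, the feedback inhibitor of p53, overlapped between extracts (0.04, edgeR adjusted p = 0.673), and the repair gene DDB2 (−0.65) and the mitochondrial reductase FDXR (−0.56) were lower.

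Among genes of liver functions, those of coagulation and complement were mostly lower. Of 26 coagulation and complement genes 21 were lower and 1 higher (23 and 1 with library totals), with a median of −0.31. C8A, a chain of the complement attack complex, had 10.9, 11.2 and 11.9 CPM with Poria against 27.4, 25.9 and 27.9 CPM with Atractylodes (log2 −1.26 ± 0.0592). Factor VII, F7, had 12, 13.1 and 10.7 CPM against 21.3, 21.2 and 22.5 CPM (log2 −0.86 ± 0.0815). Both genes had groups that stood clearly apart. Of 15 acute phase genes 4 were higher and 4 lower (2 and 7 with library totals), against 21.8% and 21.1% of all genes. The fibrinogen chains FGA (−0.81), FGG (−0.77) and FGB (−0.36) and haptoglobin HP (−0.77) were lower, while the receptor IL6R (1.21) and the protease inhibitor SERPINA1 (0.34) were higher. Albumin, ALB, was lower by a small amount (−0.17 ± 0.0543), a call lost without the first Poria library (edgeR adjusted p = 0.121) or the third Atractylodes library (edgeR adjusted p = 0.0831).

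Among liver transcription factors, NR1H4 and CEBPA stood out. NR1H4, the bile acid receptor FXR, had 23.6, 24.1 and 21.7 CPM with Poria against 61.6, 66.1 and 68.5 CPM with Atractylodes (log2 −1.50 ± 0.0561, edgeR adjusted p = 1.28e-27). CEBPA, a factor of hepatocyte differentiation, had 51.2, 51.9 and 49.6 CPM against 116, 111 and 113 CPM (log2 −1.16 ± 0.0699). Neither gene's groups overlapped. Of the 17 genes in the liver factor list, which holds CEBPA but not NR1H4, 8 were higher and 6 lower. Of all genes 21.8% were higher and 21.1% lower. With library totals the list's counts became 2 and 7, and HNF4A changed sign between scalings (0.11 and −0.01). In the bile acid list NR0B2, the repressor SHP that FXR induces, was higher, with 83.3, 100 and 104 CPM with Poria against 51.6, 58.7 and 60.1 CPM with Atractylodes (log2 0.75 ± 0.0866). CYP7A1, the hydroxylase that commits cholesterol to bile acids, was lower (−0.70 ± 0.128), and BAAT, which conjugates bile acids, was higher (0.85 ± 0.0865). Of 22 liver genes of amino acid and nitrogen metabolism 11 were lower and 3 higher (14 and 2 with library totals). CPS1, the entry enzyme of the urea cycle, had 44.4, 45.5 and 42.3 CPM with Poria against 68.7, 72 and 77.2 CPM with Atractylodes (log2 −0.72 ± 0.0656). ARG1, which ends the cycle, had 10.3, 11.5 and 12.7 CPM against 5.6, 6.7 and 7.17 CPM (log2 0.82 ± 0.121), so enzymes of 1 cycle differed in both directions.

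Lipid synthesis genes were mostly lower with Poria. Of 25 cholesterol genes 14 were lower and 2 higher at 500 µg/mL (21 and 1 with library totals). At 100 µg/mL 22 were lower and 1 higher, where 10.6% of all genes were lower and 10.9% higher. TM7SF2, a sterol reductase, had 41, 42 and 41.1 CPM with Poria against 84, 86.4 and 86.2 CPM with Atractylodes (log2 −1.05 ± 0.0563). Of 20 fatty acid and triglyceride synthesis genes 13 were lower and 1 higher (15 and 1 with library totals). GPAM, which begins glycerolipid synthesis, had 108, 92.7 and 94.6 CPM with Poria against 203, 203 and 207 CPM with Atractylodes (log2 −1.05 ± 0.0434), and FASN, the fatty acid synthase, was not called (0.06). PLIN2, the coat protein of lipid droplets, was higher, with 582, 720 and 719 CPM against 222, 303 and 319 CPM (log2 1.26 ± 0.113).

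More genes differed at each higher dose. At 100 µg/mL 3459 genes were called (1747 higher, 1712 lower; 1034 and 3077 with library totals), and 2935 of them were called in the same direction at 500 µg/mL, which is 84.9% of the calls at 100 µg/mL and 42.5% of those at 500 µg/mL. A fit of the 6 libraries compared alone called 1646 genes at 100 µg/mL. Without the first Poria library at that dose 2931 were called (1620 higher, 1311 lower), and 2617 of them, or 89.3%, were called in the same direction at 500 µg/mL. The libraries of the doses are different ones. Of the 2935, 2505 had the larger difference at 500 µg/mL, and the median ratio of the difference at 100 to that at 500 µg/mL was 0.639. Another 7 genes were called in opposite directions, among them MT2A and SC5D, a sterol desaturase (0.13 at 500 and −0.19 at 100 µg/mL). Over all 16093 genes Pearson's r between the log2 differences at the 2 doses was 0.364, a description across genes, which are not independent replicates. All 23 genes named for their difference at 500 µg/mL were called at 100 µg/mL in the same direction, with and without that library, and AKR1B10, MT1F and MT1G were called at 20 µg/mL too.

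AKR1B10 was graded over the whole range. It had 54.9, 58.6 and 64 CPM with Poria against 44.9, 41.7 and 41.7 CPM with Atractylodes at 20 µg/mL (log2 0.47, edgeR adjusted p = 1.38e-06), and 202, 208 and 190 CPM against 48.6, 43 and 44.5 CPM at 100 µg/mL (log2 2.14). EGR1 and SQSTM1 were graded from 100 µg/mL. EGR1 had 57.4, 55.3 and 51 CPM with Poria against 18, 18.6 and 18.9 CPM with Atractylodes at 100 µg/mL (log2 1.56), and SQSTM1 had 376, 410 and 390 CPM against 203, 204 and 203 CPM (log2 0.95). At 20 µg/mL neither was called (0.17 and 0.04). Lists followed their members, with 18 of 25 NRF2 targets higher and 3 lower at 100 µg/mL and none called at 20 µg/mL. Of 32 mitosis genes 22 were lower at 100 µg/mL (19 without the first Poria library). At that dose 10.9% of all genes were higher and 10.6% lower.

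The difference at 500 µg/mL was itself tested against that at the lower doses. Against 20 µg/mL the log2 difference moved upward in 2529 genes and downward in 2222 (15.7% and 13.8% of genes). With library totals these counts were 1537 and 3608. Against 100 µg/mL, a contrast added after the data were seen, it moved upward in 866 genes and downward in 631 (5.38% and 3.92%). With library totals these counts were 509 and 952. A downward move can be a wider gap, as for HAMP, which was lower with Poria. In the contrast of 500 with 100 µg/mL 26 of 32 mitosis genes and 23 of 34 S phase genes were lower and none higher, while 14 of the 25 NRF2 targets and 14 of the 20 immediate early genes were higher and none lower. Without the first Poria library at 100 µg/mL the difference moved upward in 655 genes and downward in 526. The list counts were then 28, 17, 14 and 16 in the same order. With all libraries, 5 of the 25 cholesterol genes were higher and 2 lower in the contrast of 500 with 100 µg/mL. Without the first Poria library at 100 µg/mL these counts were 4 and 1.

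**Figure D4:**
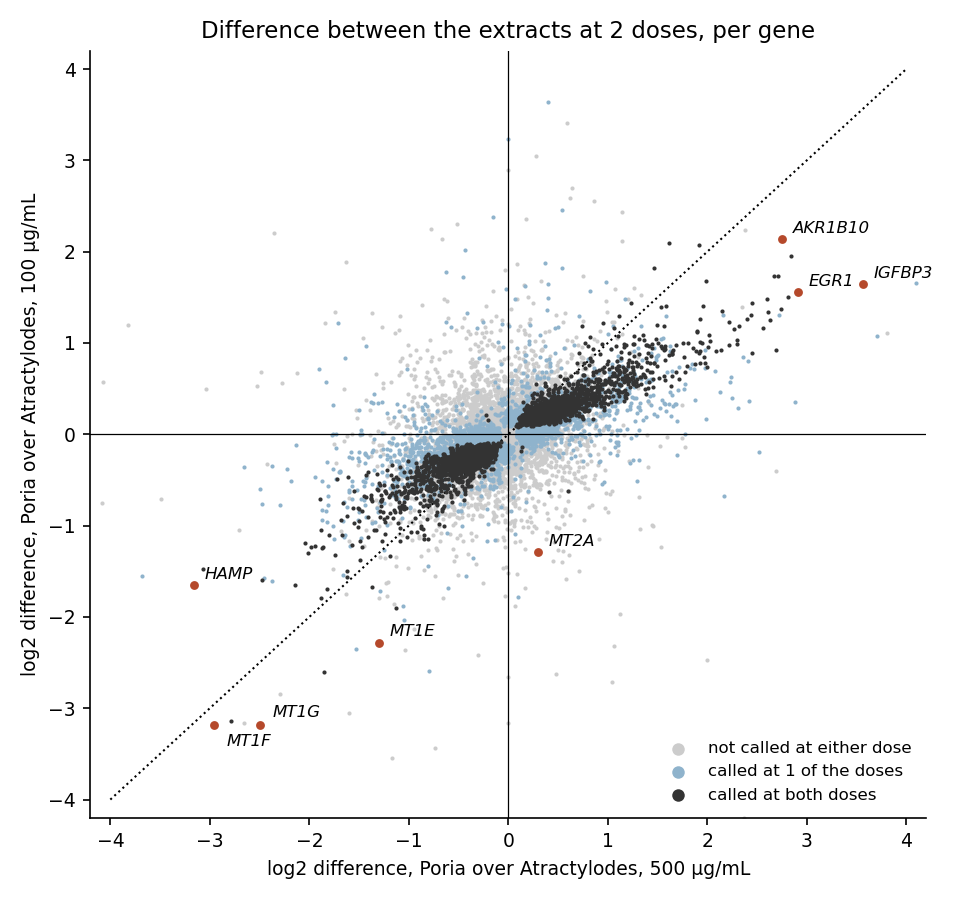
Log2 difference of Poria over Atractylodes at 500 µg/mL (x axis) and 100 µg/mL (y axis), 1 point per gene; grey points were called at neither dose, blue at 1 and black at both, the dotted line marks equal differences and 54 genes lie outside the axes. Of the 2935 genes called at both doses in the same direction, 2505 lie between the dotted line and the x axis, and MT2A is right of 0 but below it.

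Against vehicle more genes were called with Poria than with Atractylodes at 500 µg/mL. The vehicle columns begin with another label than the extract columns. In comparisons with vehicle, an effect of the extract and a difference between these column sets cannot be told apart. These comparisons share the vehicle libraries with each other and the extract libraries with the contrast above, so their values and calls are only set side by side. All 11 genes named for their upward difference were called higher with Poria at 500 µg/mL over vehicle, where 23.9% of all genes were higher and 23.7% lower, by 2.12 to 3.47. With Atractylodes at 500 µg/mL over vehicle 1 of the 11 was called, AKR1B10 (0.24), where 0.559% of all genes were higher and 0.329% lower. All 12 genes named for their downward difference were called lower with Poria, by −3.63 to −1.65, and with Atractylodes 1 of them, MT1F (−0.47). The choice of the named genes on the same 500 µg/mL libraries largely fixed their calls with Poria. MT2A, whose vehicle libraries had 490, 397 and 399 CPM, was not called with Poria (−0.21) and was lower with Atractylodes (−0.52, edgeR adjusted p = 0.0277). PFKFB3 was higher over vehicle with both extracts, by 2.81 with Poria and 1.51 with Atractylodes, and so were the ER co-chaperone DNAJB9 (1.37 and 0.54) and PCK1 (1.04 and 0.45).

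**Figure D5:**
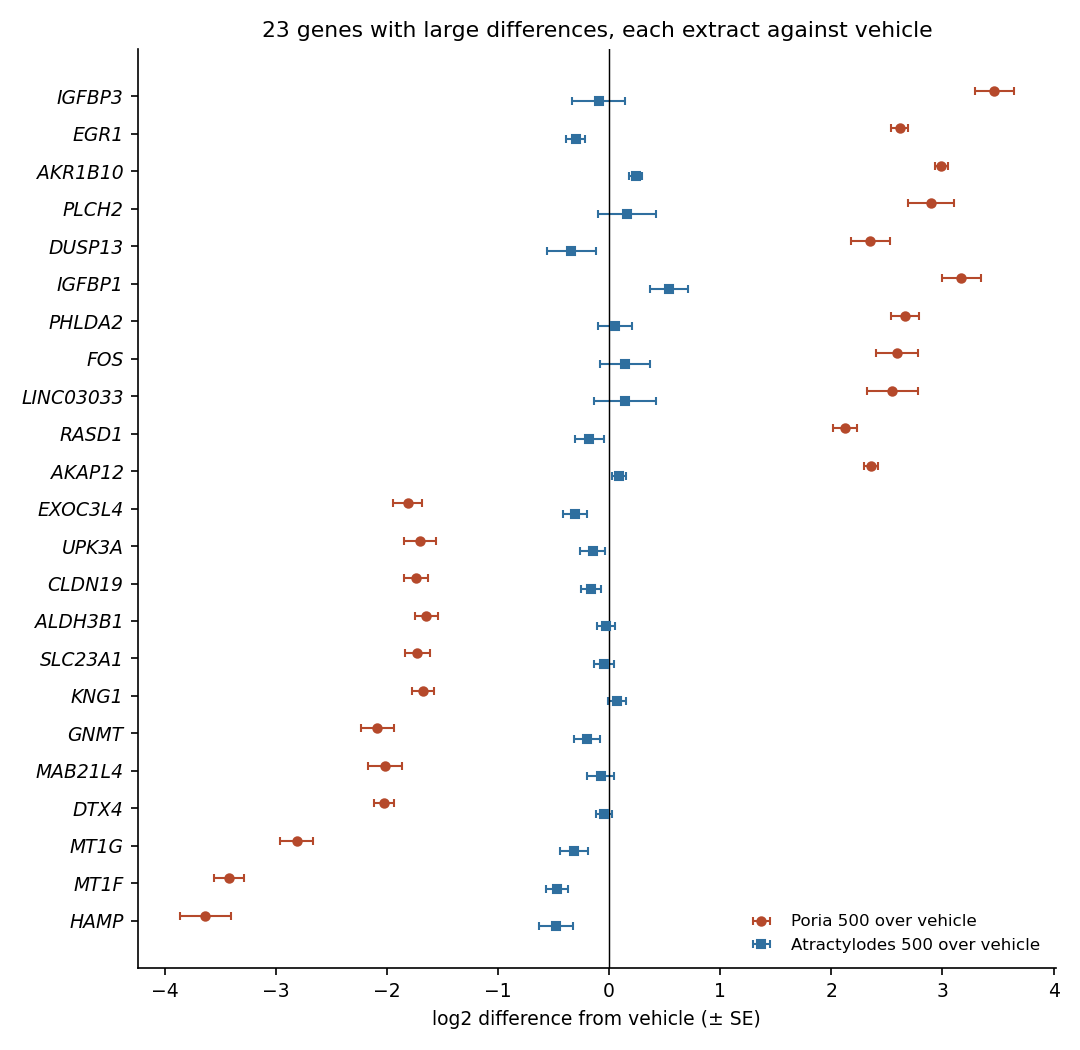
Log2 difference over vehicle (x axis, ± SE) with Poria at 500 µg/mL and with Atractylodes at 500 µg/mL for the 23 genes named for their difference between the extracts (rows). The Poria values run from 2.12 to 3.47 for the genes higher and from −3.63 to −1.65 for the genes lower, while the Atractylodes values lie between −0.48 and 0.54.

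Markers of other cell types were measured beside these results. Blood cell markers summed to 2243 to 2770 CPM in Poria libraries and 1343 to 1550 CPM in Atractylodes libraries, nearly all from LYZ, with 5 and 4 of 10 at 0, PTPRC and HBB among them. Fibroblast and stellate markers summed to 35.33 to 38.02 CPM in Poria libraries and 66.73 to 73.84 CPM in Atractylodes libraries, nearly all from ACTA2, with 5 of 10 at 0 in each. Mitochondrially encoded genes were called higher in 7 of 13 (4 with library totals), led by MT-ND1 with 8151, 6796 and 6889 CPM with Poria against 4934, 4604 and 4203 CPM with Atractylodes (log2 0.67 ± 0.164). This count ran from 0 to 11 over the alternatives, which include the fit without these genes, where it is 0 by design. Without these genes in the fit 6889 genes were called between the extracts. Their part in the other differences was not tested.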

How the data were processed

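RNA of HepG2 cells was sequenced after 24 h with vehicle, wortmannin or herbal extracts. Per the labels, the authors deposited 1 table of RSEM expected counts per gene. The submitters' processing notes name FastQC 0.11.9, Trim Galore 0.6.5, STAR 2.7.3a, RSEM 1.3.3 and hg38. The annotation release is not given in the sources used here. Of 270 columns, 60 carry a name that a sample description gives; the other 210 were not used here. Expected counts, 76.1% of those above 0 whole within 1e-09, were rounded. Symbols came from a gene name table and GENCODE 29 by Ensembl identifier. Identifiers without one hold 0.441% of counts. Library totals ran from 20.9 to 33.4 M.

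Groups came from the labels. All 60 libraries were fitted together (edgeR 4.0.16, limma 3.58.1, R 4.3.3) with 1 mean per group, TMM factors, filterByExpr (minimum count 10, total 15) and glmQLFit. Contrasts were tested with glmQLFTest, Benjamini-Hochberg adjustment over 16093 genes and a threshold of 0.05. Fold changes used a prior count of 0.125. CPM values use TMM-scaled library sizes. Alternatives were DESeq2 size factors, library totals (chosen after seeing the data), other filters, subsets of libraries, a 1.5-fold threshold, DESeq2 1.42.0, a replicate block and each library left out. Tested on simulated data for the contrast at 500 µg/mL (16093 genes, 100 changed per fold), the fit recovered 85 genes at 1.5-fold and 96 at 2-fold, with 3.21% false calls. The changed genes were drawn from those of at least 1 CPM, with random direction. Far fewer genes changed there than the 42.9% called in the data. The simulation therefore gives no rate of false calls for the data and does not test the scaling.

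Named genes were the 12 largest differences each way among called genes with a symbol, at least 5 CPM in 1 group and no overlap of libraries, up to 4 members per list each way plus those needed for a list's roles, a fixed set always named, and for the other contrasts those of smallest p. Some genes this rule picks are not reported here. The libraries, lists and genes were chosen with earlier results of these data known. Promoters are RefSeq's (GRCh38.p14).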

Additional observations from a re-analysis of the deposited data

Results flagged for a closer look

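The difference between the extracts at 500 µg/mL was tested against the same difference at 20 µg/mL, and 4751 genes passed edgeR's quasi-likelihood test. All 23 genes named for their difference at 500 µg/mL were among them, which their choice on the same 500 µg/mL libraries largely fixed. Among those higher with Poria, the change of the log2 difference was 3.48 for IGFBP3, 2.75 for EGR1, 2.29 for AKR1B10, 2.75 for PLCH2, 2.49 for DUSP13, 2.58 for IGFBP1, 2.72 for PHLDA2, 2.85 for FOS, 2.82 for LINC03033, 2.25 for RASD1 and 2.22 for AKAP12. Among those lower with Poria it was −3.10 for HAMP, −1.98 for MT1F, −1.36 for MT1G, −1.72 for DTX4, −1.80 for MAB21L4, −1.78 for GNMT, −1.67 for KNG1, −1.69 for SLC23A1, −1.58 for ALDH3B1, −1.31 for CLDN19, −1.54 for UPK3A and −1.38 for EXOC3L4. For MT2A, lower with Poria at 20 µg/mL and higher at 500 µg/mL, it was 1.28.

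Between 100 and 500 µg/mL the difference changed in 1497 genes. It moved upward for 4 metallothioneins, by 0.69 for MT1G, 0.99 for MT1E, 0.77 for MT1X and 1.59 for MT2A, while the change of 0.22 for MT1F was not called. Without the first Poria library at 100 µg/mL the change was 0.38 for MT1G, which was then not called (edgeR adjusted p = 0.28), and 0.73 for MT1E, 0.52 for MT1X and 1.34 for MT2A.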

How the results depend on the processing

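The count at 500 µg/mL stayed between 6183 and 7726 except against a 1.5-fold change, where 658 genes passed (408 higher, 250 lower). At 100 µg/mL the 1.5-fold threshold left 69 genes and a fit of the compared libraries alone 1646. At 20 µg/mL there were 277 calls with no filter, 7 with the 18 libraries of these extracts, 18 with the DESeq2 Wald test and 0 with edgeR's test against a 1.5-fold change (11 with the quasi-likelihood test, and 1402 at its unadjusted p below 0.05). The contrast of 500 with 20 µg/mL had 405 genes against a 1.5-fold change. The contrast of 500 with 100 µg/mL had 11 against a 1.5-fold change and 815 in the compared libraries alone. With 1 library left out at a time the counts ran from 6183 to 6318 at 500 µg/mL, from 2853 to 3266 at 100 µg/mL, from 7 to 59 at 20 µg/mL, from 4240 to 4637 for 500 with 20 µg/mL and from 1177 to 1528 for 500 with 100 µg/mL.

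Replicate numbers paired the libraries weakly at 500 µg/mL, where deviations of same-numbered libraries correlated at 0.05, 0.036 and 0.0244. At 500 and 20 µg/mL every library correlated best with its own number. A replicate block over 60 libraries gave 6987, 3545 and 11 calls at 500, 100 and 20 µg/mL and 4858 and 1575 for the contrasts with 20 and 100 µg/mL. The replicate block within the compared libraries gave 7726, 2086, 60, 5326 and 1114. The same libraries without a block gave 6760, 1646, 10, 4596 and 815.

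Of 291 called genes named by rule, 247 kept call and direction under every alternative other than the 1.5-fold threshold, which 108 passed. With library totals 3 turned sign, CDC6 (−0.00372), PGD (−0.0213) and HNF4A (−0.0102). Counts of list members moved by over 1.5 times under an alternative other than that threshold in 43 of 98 cases. For mitochondrially encoded genes called higher, the fit without these genes fixed such a move.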

Other observations

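Fatty acid oxidation genes were lower with Poria at 500 µg/mL in 13 of 22 tested members and higher in 3 (14 and 3 with library totals). EHHADH, the bifunctional enzyme of peroxisomal oxidation, had 41.4, 41.9 and 40.3 CPM with Poria against 66.5, 69.3 and 71 CPM with Atractylodes (log2 −0.74 ± 0.0441, edgeR adjusted p = 1.05e-19). HADH, a mitochondrial dehydrogenase of the same cycle, differed by −0.66, while CPT1A, which admits fatty acids to mitochondria, was higher (0.32 ± 0.0759). In serine synthesis and the folate cycle 11 of 18 genes were lower and 1 higher (12 and none with library totals). PHGDH, the first enzyme of serine synthesis, had 106, 108 and 109 CPM with Poria against 142, 146 and 144 CPM with Atractylodes (log2 −0.43 ± 0.0445), and at 100 µg/mL it was not called (−0.07). GLDC, which cleaves glycine in mitochondria, differed by −0.56 at 500 µg/mL and −0.30 at 100 µg/mL.

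Ribosome biogenesis genes were higher in 16 of 25 members and lower in none, a balance of 9 and 4 with library totals, led by RRP12 (0.50 ± 0.042), a processing factor of ribosomal RNA. Cytosolic aminoacyl-tRNA synthetases were higher in 11 of 20 and lower in none, but 5 and 7 with library totals. HARS1, the histidine enzyme, stood above the rest of that list with 110, 116 and 117 CPM with Poria against 77.1, 76 and 75.8 CPM with Atractylodes (log2 0.58 ± 0.0381). Of 18 interferon-stimulated genes 5 were higher and 4 lower, where 21.8% of all genes were higher and 21.1% lower. With library totals the list's counts were 3 and 8, where 2073 and 5523 of all 16093 genes were higher and lower. OAS1, a sensor of double-stranded RNA, had 10.3, 11.3 and 10.7 CPM with Poria against 6.63, 6.82 and 7.72 CPM with Atractylodes (log2 0.61 ± 0.0915), and IFIT1, a binder of foreign RNA caps, had 1.77, 1.6 and 1.8 CPM against 3.69, 3.81 and 4.26 CPM (log2 −1.18 ± 0.162).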
